A study of Mus musculus with 50 samples.

Results

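The genes described here are 5 members of the Hoxb cluster (Hoxb2, Hoxb4, Hoxb5, Hoxb6 and Hoxb7), with Hoxd8 and Hoxa13 from other Hox clusters. They are 7 of the 18 Hox genes and 7 of the 11879 genes of a table of transcript abundance in 50 single mouse cells. They were chosen by their values in these same cells, from among the Hox genes with a TPM (transcript abundance scaled for length and to a common total) over 1 in no fewer than 10% of the cells, so the shares below describe them and test nothing. The named member nearest that limit was Hoxd8, above TPM 1 in 10 cells, while Hoxa5 just outside it passed in 4 cells and Hoxa10 and Hoxb9 in 3 cells each.

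All 50 cells were iRunx1-iHECs, hemogenic endothelial cells, the kind of endothelium from which blood cells bud, induced in culture from C57BL/6 mouse embryonic stem cells. Hygromycin-selected stem cell clones carried an rtTA-TRE-Runx1-HygroR cassette in the Rosa26 locus, so that doxycycline, given in the later days of differentiation, switched on Runx1, a transcription factor required for blood formation. Cells were sorted as CD31+CD41lowCD45-c-kit+CD201high, and polyadenylated RNA of each cell was amplified and sequenced. There was no group without the cassette or without doxycycline, and the labels name no separate culture, so the 50 cells are 1 sample without a replicate and all values are descriptions with no test.

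Hox genes encode transcription factors that bind DNA through a shared homeodomain and give cells their position along the body axis. They lie in 4 clusters, and within a cluster genes are usually switched on in their order along the chromosome, a property known as collinearity. Hox proteins bind many sites together with PBX and MEIS proteins, and Polycomb and trithorax complexes keep the clusters silent or active. In blood, several Hoxa and Hoxb genes are used in stem and progenitor cells, whereas Hoxa13 is best known from the limbs, the gut end and the umbilical vessels.

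In GENCODE coordinates on GRCm38, the Hoxb members lie on the plus strand of chromosome 11 in the order Hoxb7 (ENSMUSG00000038721, chr11:96286623-96290162), Hoxb6 (ENSMUSG00000000690, chr11:96292476-96301569), Hoxb5 (ENSMUSG00000038700, chr11:96303336-96306121), Hoxb4 (ENSMUSG00000038692, chr11:96318267-96321638) and Hoxb2 (ENSMUSG00000075588, chr11:96350525-96354012). Hoxb3 lies between Hoxb4 and Hoxb2 and was not analysed here. Hoxd8 (ENSMUSG00000027102) is at chr2:74704615-74707933 on the plus strand, and Hoxa13 (ENSMUSG00000038203) at chr6:52257694-52260880 on the minus strand.

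Short reads must tell these related genes apart, so the most conserved stretch of the homeobox, the exonic sequence that codes for the DNA-reading helix, is shown for 5 members from the GENCODE transcripts. Each line gives 30 bases, 5′ to 3′ on the coding strand, and capitals mark bases that differ from Hoxb7.
Hoxb7: aagatctggtttcagaaccggcgcatgaag
Hoxb6: aagatTtggtttcagaaccggcgcatgaag
Hoxb4: aagatctggttCcagaaTcggcgcatgaag
Hoxd8: aaAatctggttCcagaacAggAgAatgaaA
Hoxa13: aCAatctggttCcagaacAggAgGGtCaaA
Hoxa13 differed from Hoxb7 at 9 of these bases, Hoxd8 at 6, Hoxb4 at 2 and Hoxb6, its neighbour on the chromosome, at 1. Over the whole homeobox of 180 bases, identity was highest between the neighbours Hoxb6 and Hoxb7 (88.9%) and lowest, at 48.3%, between Hoxa13 and Hoxb4 and between Hoxa13 and Hoxb6. Of the 31-base words of each whole gene, homeobox included, between 0.0730% (Hoxd8) and 2.55% (Hoxb5) occurred in any other gene, except for Hoxb2 with 26.5%. Those Hoxb2 words all lay in Hoxb3os, an antisense gene that covers 953 exonic bases of Hoxb2 (27.3%). Hoxb5os likewise covers 100 exonic bases of Hoxb5 (3.59%). Neither antisense gene was analysed here, and whether reads were assigned by strand was not given in the sources used here, so reads of Hoxb2 and Hoxb3os cannot be told apart over the shared bases. Hoxb6 and Hoxb7 shared 7 words.

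The 250 bases before the start of 1 member per cluster are shown from RefSeq (GRCm38.p6), in the direction of transcription, to show the separate start regions behind genes that were found together in some cells. Of the 7 members, 3 matched an entry, and Hoxb2, Hoxb5, Hoxb6 and Hoxb7 did not. Capitals mark a CCAAT match.
Hoxb4, chr11:96318017-96318266, plus strand: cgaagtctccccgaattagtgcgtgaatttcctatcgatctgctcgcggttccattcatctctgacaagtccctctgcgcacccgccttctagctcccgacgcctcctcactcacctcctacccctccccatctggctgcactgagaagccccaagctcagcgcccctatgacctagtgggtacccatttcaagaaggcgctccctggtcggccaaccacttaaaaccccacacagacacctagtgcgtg
Hoxd8, chr2:74704365-74704614, plus strand: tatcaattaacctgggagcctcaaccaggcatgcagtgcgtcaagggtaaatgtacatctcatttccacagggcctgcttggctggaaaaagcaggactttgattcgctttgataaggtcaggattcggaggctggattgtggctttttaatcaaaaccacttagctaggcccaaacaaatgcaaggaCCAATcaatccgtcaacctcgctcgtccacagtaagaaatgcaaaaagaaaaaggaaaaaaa
Hoxa13, chr6:52260881-52261130, minus strand: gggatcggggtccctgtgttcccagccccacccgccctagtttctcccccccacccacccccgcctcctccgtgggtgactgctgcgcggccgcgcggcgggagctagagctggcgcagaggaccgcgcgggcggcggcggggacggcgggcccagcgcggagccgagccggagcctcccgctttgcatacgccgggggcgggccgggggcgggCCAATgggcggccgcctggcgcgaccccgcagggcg
The window of Hoxa13 held 80% G and C and 35 CpG dinucleotides, that of Hoxb4 58% and 14, and that of Hoxd8 44.4% and 6. The median over 32851 windows of that length was 52.4% and 6, and the 95th percentile was 73.6% and 31. Searched on both strands, CCAAT lay 36 bases before the Hoxa13 start and 62 bases before the Hoxd8 start, and 33.8% of all windows held it. None of the 3 windows held TGTGGT (the core that RUNX proteins read, in 14.0% of all windows), TGATTNAT (HOX with PBX, 2.82%), TTTATNG (CDX, 9.81%) or TATAAA (read by the TBP protein, 12.4%). No other motif overlapped these matches.

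The cells carried the endothelial state of their label. Each of 8 endothelial markers was above TPM 1 in at least 45 cells, and the sort markers Pecam1, Procr and Kit in 50, 50 and 47 cells, with Ptprc (CD45) listed at 0 in every cell. Itga2b, which encodes CD41, for which cells were sorted as low, was above TPM 1 in 40 cells, with a median of 42.98 and a highest value of 609 TPM. Of 8 mesenchymal markers, 5 were in the table and their summed level ran from 0 to 84.2 TPM, with Col3a1 and Pdgfrb at 0 in every cell and Twist1 above TPM 1 in 5 cells. Of 8 blood markers, Coro1a was above TPM 1 in 21 cells, Pf4 in 17, the embryonic globins Hbb-bh1 and Hbb-y in 4 each, Gfi1b in 1, and Gata1, Spn and Ptprc in none. Given the number of genes above TPM 1 per cell, the summed level of the blood list had a partial Spearman rho of -0.132 with the mean Hoxb level. That of the mesenchymal list was -0.207, and the part of these markers in the results was not tested. Nes was the neural marker measured, in 19 cells, and pluripotency genes were not analysed here. The number of genes above TPM 1 per cell had a median of 6223.5 and ran from 2400 to 8615, with 7 cells under 5000. Read depth per cell is unknown, because TPM keeps none.

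Hoxb5 was the most widely detected member. It passed TPM 1 in 40 of 50 cells (80%, exact 95% interval 66.3 to 89.97), with a lowest value of 0, a median of 37.2 and a highest of 159 TPM over all cells. Hoxb5 marks long-term blood stem cells in the mouse marrow. When detected it was rarely near the limit: 35 cells exceeded TPM 10, and the lowest value above TPM 1 was 3.62. Another 6 cells were listed at 0 and 4 lay above 0 but not above 1.

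Hoxb2, the most 3′ of the measured Hoxb genes and known for its part in hindbrain patterning, followed with 32 cells (64%, 49.2 to 77.1). Its median was 14.0 TPM, its range ran from 0 to 265, and its median among the cells above TPM 1 was 48.1, close to the 44.2 of Hoxb5. The exact intervals of the shares of these genes overlap. Next came Hoxb4 and Hoxb7 with 19 cells each (38%, 24.7 to 52.8) and Hoxa13 with 18 (36%, 22.9 to 50.8), then Hoxb6 with 15 (30%, 17.9 to 44.6) and Hoxd8 with 10 (20%, 10.0 to 33.7). No neighbours in this order had intervals that were apart, while the interval of Hoxb5 lay above those of Hoxb4, Hoxb7, Hoxa13, Hoxb6 and Hoxd8.

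Members with the same share could differ in level. Hoxb4, which expands blood stem cells when overproduced, passed in as many cells as Hoxb7 but at lower TPM, a unit already scaled by transcript length. Its median above TPM 1 was 10.8 and its highest value 42.3, and 9 further cells lay between 0 and 1, the most of any member. Hoxb7 had a median above TPM 1 of 41.2 and a highest value of 115, with 29 cells at 0 and 2 between 0 and 1. Hoxb6, its neighbour and a gene of early erythroid and progenitor cells, was at 0 in 34 cells, had a median above TPM 1 of 21.1 and reached 65.7. Hoxd8 was at 0 in 40 cells and had no value between 0 and 1. Its 10 positive cells ran from 2.79 to 42.8 with a median of 24.8. Hoxa13, a gene of the most posterior group, was at 0 in 31 cells and ran from 2.61 to 34.8 in its 18 positive cells, with a median of 12.9.

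**Figure D1:**
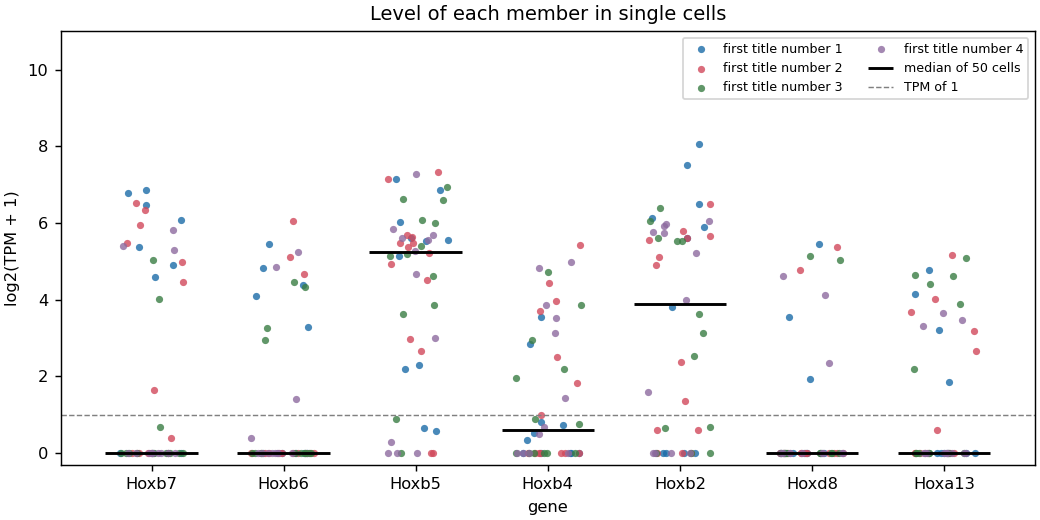
Level of each member in the 50 cells as log2(TPM + 1), with Hoxb genes in genome order from Hoxb7 to Hoxb2. Each point is a cell, colours give the first number of its title, black bars are medians over 50 cells and the dashed line is TPM 1. Hoxb5 and Hoxb2 have medians of 37.2 and 14.0 TPM, Hoxb4 has 0.522, and the other 4 members have a median of 0.

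Over all 350 pairs of a member and a cell, 176 were listed at 0, 21 lay between 0 and 1, 17 between 1 and 5, and 122 above 10, which is 79.7% of the 153 above TPM 1. Most values thus lay either at 0 or well above the limit. Hoxb4 was the exception, with 9 of the 21 low values. A TPM of 0 in a single amplified cell is a listed value and not a proof that the transcript was absent.

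Each cell is titled with 2 numbers that the labels do not explain, and the first takes 4 values with 11, 14, 13 and 12 cells. Hoxb2 was the most even member across them, with shares of 61.5% to 66.7%, and Hoxb5 ran from 66.7% to 85.7%. Hoxb7 was the most uneven, from 15.4% in the cells of number 3 to 63.6% in those of number 1, and Hoxb4 ran from 18.2% to 50%. The mean number of members per cell ran from 2.83 for number 4 to 3.36 for number 1, and the median was 3 for each number. The part of these numbers in the shares was not tested.

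Almost every cell expressed some member. At least 1 of the 7 was above TPM 1 in 49 cells, and at least 1 Hoxb gene in 48. Hoxb5 or Hoxb2 was present in 45 cells, and both in 27. Hoxb5 was the highest member in 21 cells, Hoxb2 in 17, Hoxb7 and Hoxa13 in 4 each, Hoxb6 in 2 and Hoxb4 in 1, and Hoxd8 in none of the 50. All 10 cells with Hoxd8 and 17 of the 18 with Hoxa13 also had a Hoxb gene. The summed Hoxb level had a lowest value of 0.841, a median of 97.3 and a highest of 349 TPM.

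The number of members in a cell had a median of 3 and a mean of 3.06. From 0 to 7 members, the cells numbered 1, 5, 13, 13, 11, 4, 2 and 1. If each gene were switched on in its share of cells regardless of the others, the same numbers would be 0.496, 4.09, 11.8, 16.1, 11.8, 4.72, 0.973 and 0.0798. At least 3 members were present in 31 cells (62%, 47.2 to 75.3) against 33.6 given by the shares. The spread over cells was somewhat wider than given, with a variance of 2.06 against 1.46, a ratio of 1.41. No such ratio was computed for other genes, so it is not read as particular to the members. Of all pairs of genes above TPM 1 in 20% to 80% of cells, 73.2% were also together in more cells than given. The Spearman rho between members and genes above TPM 1 in a cell was 0.268 (50 cells, which share a library method and whose depth is unknown). Within 3 bins of the cells by gene number the shares gave 1.06 cells with at least 6 members, beside 1.05 without bins and 3 observed.

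The widening was clearest at the top of the Hoxb count. From 0 to 5 Hoxb genes the cells numbered 2, 8, 16, 16, 3 and 5, against 0.969, 7.20, 17.0, 16.6, 7.11 and 1.1 given by the shares. The 5 cells with every Hoxb member (10%, 3.33 to 21.8) therefore stood beside 1.1, while 3 cells with 4 genes stood beside 7.11, so that 8 cells had at least 4 Hoxb genes against 8.22 given. The 5 cells showed 6653 to 8164 genes each, all above the median cell, and within 3 bins of the cells by gene number the shares gave 1.64 such cells. The part of gene number in this count was not tested.

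**Figure D2:**
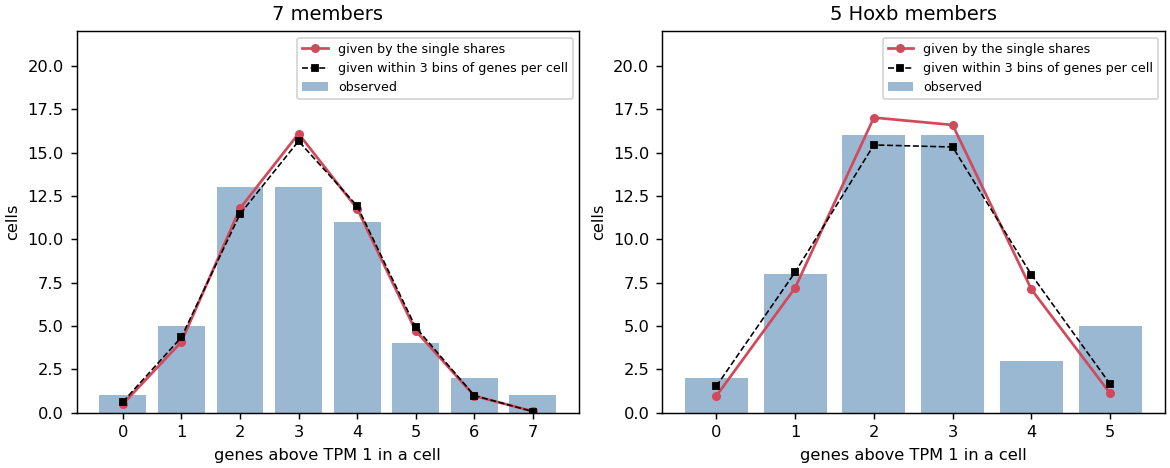
Number of cells (y axis) by how many members were above TPM 1 (x axis), for all 7 members on the left and the 5 Hoxb members on the right. Bars are observed cells, circles the cells given by the single shares and squares the cells given within 3 bins of genes per cell. The observed bar for all 5 Hoxb genes is 5 cells, beside 1.1 and 1.64.

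One cell of the 50, titled 2-2, had all 7 members, with 54.3 TPM of Hoxb2, 14.6 of Hoxb4, 43.2 of Hoxb5, 65.7 of Hoxb6, 60.4 of Hoxb7, 26.2 of Hoxd8 and 34.8 of Hoxa13. That cell held the highest value of Hoxb6 and of Hoxa13 in the table. Cell 1-10 had all 5 Hoxb genes and the highest Hoxb2 value, 265 TPM, with neither Hoxd8 nor Hoxa13. At the other end, cell 2-3 had no member above 0.522 TPM, although it showed 6786 genes. Cell 3-3 had Hoxa13 at 3.59 TPM and no Hoxb gene above 0.841. Cell 4-6, the one with the fewest genes at 2400, had Hoxb4 alone, at 27.4 TPM.

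The members formed many combinations. The cells fell into 35 different sets of expressed members, and 25 of these sets were seen in 1 cell each. The counts that the single shares would give for these sets were not computed, so the sets are only listed. The most frequent were Hoxb2 with Hoxb5 alone (4 cells), the same with Hoxb7 (4 cells) and the same with Hoxa13 (3 cells). Some sets had gaps along the chromosome, that of Hoxb2 with Hoxb5 alone skipping Hoxb4.

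**Figure D3:**
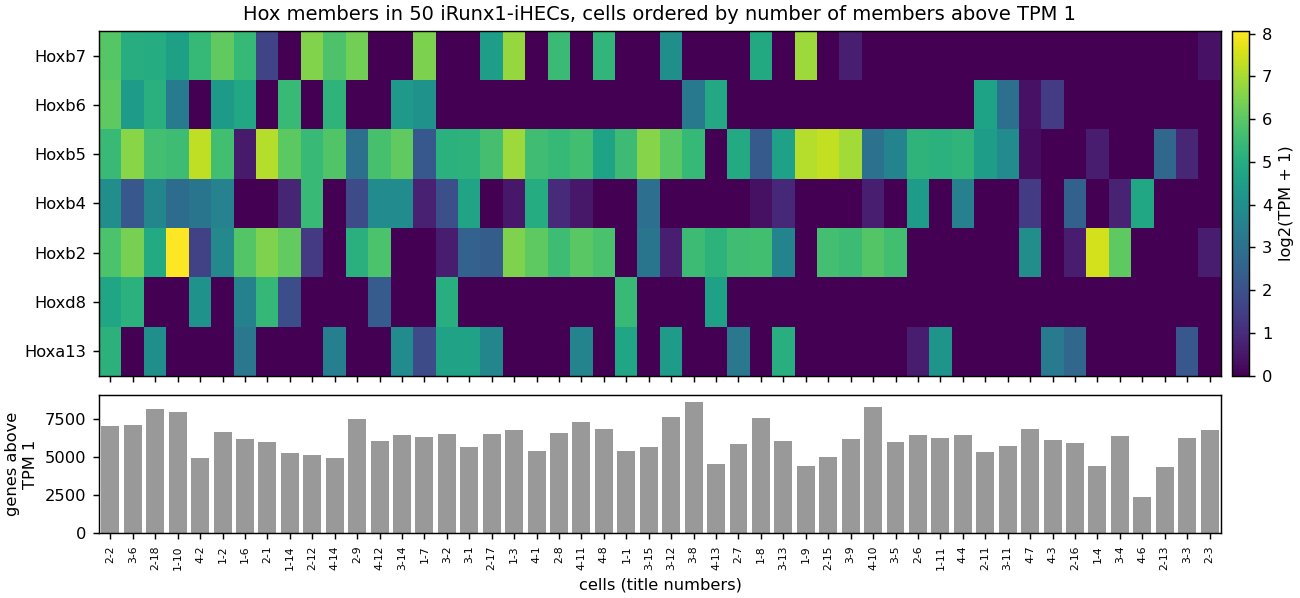
Level of the 7 members (rows, colour as log2(TPM + 1)) in the 50 cells (columns, named by their title numbers), ordered from most to fewest members above TPM 1. Grey bars give the number of genes above TPM 1 per cell. Hoxb5 and Hoxb2 fill most columns (40 and 32 cells), the other members are scattered, and the column with all 7 members is cell 2-2.

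Whether genes that lie next to each other were on together was asked for each of the 21 pairs of members. Together in more cells than the product of their shares were 15 pairs, and 4 were together in fewer. The same was true of 73.2% of the 17313670 pairs of genes above TPM 1 in 20% to 80% of cells, so the members' count was near that background. Phi, the correlation of the yes and no calls of a pair over 50 cells, reached 0.2 in 4 of the 21 pairs, beside 23.7% of all pairs. For all 21 pairs the count given by the shares lay inside the exact 95% interval of the observed count. That interval leaves the single shares out of account and is wide, such as 3.59 to 14.6 cells around 8 for Hoxb2 with Hoxa13. It therefore cannot show that the members of a pair were independent.

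Pairs of members consecutive along the cluster, called neighbours here, numbered 4, although Hoxb3 lies between Hoxb4 and Hoxb2, so that 3 of the 4 are also adjacent Hoxb genes. Hoxb6 and Hoxb7, whose starts are 5.85 kb apart, were together in 8 cells against 5.70 given (phi 0.207, range 0.117 to 0.250 with the cells of 1 first title number left out). Hoxb4 and Hoxb5, 14.9 kb apart, were together in 16 against 15.2 (phi 0.0824), and Hoxb2 and Hoxb4, 32.3 kb apart, in 13 against 12.2 (phi 0.0721). Hoxb5 and Hoxb6, 10.9 kb apart, were together in 12 against 12.0 (phi 0). The share of cells with Hoxb6 was 30% both among the cells with Hoxb5 and among those without it.

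The median phi of the neighbours was 0.0773, beside 0.106 for the 6 other Hoxb pairs, 0.0417 for the 11 pairs with Hoxd8 or Hoxa13, and 0.0947 over all gene pairs. A closer background is given by genes other than Hox genes above TPM 1 in 20% to 80% of cells. Genes consecutive among these, with midpoints within 50 kb, were paired, and any other genes between them were skipped. Over 1342 such pairs the median phi was 0.137, and 79.2% were together in more cells than given, beside 3 of the 4 Hoxb neighbours. A phi of at least 0.2 was found in 32.9% of them and in 1 of the 4. With 1 first title number left out, the median phi of the Hoxb neighbours ran from 0.0367 to 0.150. It was 0.142 with a gene called expressed at TPM above 5, 0.137 at TPM above 10, and 0.127 with TPM rescaled without ribosomal protein genes. Each was above the median of all gene pairs at TPM 1. Beside the 0.1375 of the consecutive genes at TPM 1, the value at TPM above 5 was higher. The value at TPM above 10 (0.1370) and that without ribosomal protein genes were lower. The backgrounds were not computed under these settings.

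The highest phi values belonged to pairs with Hoxb7 that were not neighbours. Hoxb5 and Hoxb7 were together in 18 cells against 15.2 (phi 0.288, 0.223 to 0.352 with a first title number left out). Put another way, Hoxb7 was found in 18 of the 40 cells with Hoxb5 and in 1 of the 10 without it. Hoxb2 and Hoxb7 were together in 15 against 12.2 (phi 0.244, 0.0409 to 0.338), and within 3 bins of the cells by gene number the shares gave 14.3. Hoxb2 and Hoxb5, the most frequent members, were together in 27 against 25.6 (phi 0.146, 0.0155 to 0.282). The only Hoxb pair below its given count was Hoxb2 with Hoxb6, in 9 cells against 9.60 (phi -0.0546).

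Across clusters, Hoxb6 and Hoxd8 were together in 5 cells against 3.00 (phi 0.218), and Hoxb6 and Hoxa13 in 7 against 5.40 (phi 0.145). Hoxd8 and Hoxa13 met in 4 cells against 3.6. The lowest phi of all was that of Hoxb2 with Hoxa13, together in 8 cells against 11.5 (phi -0.306, -0.518 to -0.216). Hoxa13 was found in 8 of the 32 cells with Hoxb2 and in 10 of the 18 without it, whereas its share hardly moved with Hoxb5 (35% with, 40% without). That phi lay under the 5th percentile of all gene pairs, which was -0.148, and within 3 bins of gene number the shares gave 10.7 cells. It was picked out as the lowest of 21.

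**Figure D4:**
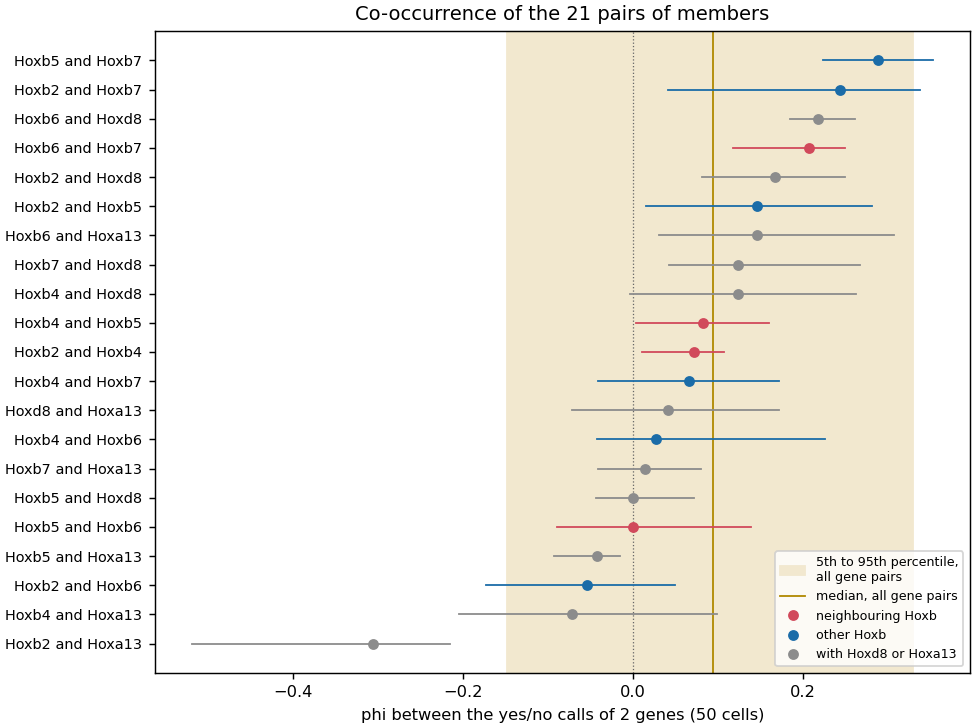
Phi of the 21 pairs of members over 50 cells, ordered from high to low. Points are the values, whiskers the range when cells of any 1 first title number are dropped, the band the 5th to 95th percentile of all gene pairs (-0.148 to 0.330) and the upright line their median (0.0947). Of the 21 points, only Hoxb2 with Hoxa13 at -0.306 lies outside the band, and the 4 neighbouring pairs (red) run from 0 to 0.207.

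Correlations of levels were of like size. The Spearman rho of log2(TPM + 1) had a median of 0.0999 over the neighbouring pairs and 0.0988 over the other Hoxb pairs. The highest was Hoxb5 with Hoxb7 (0.313) and the lowest Hoxb2 with Hoxa13 (-0.317). In the 27 cells with both Hoxb2 and Hoxb5 their levels had a rho of 0.137, and in the 18 cells with Hoxb5 and Hoxb7 one of -0.148. These are correlations over cells, which share 1 library method and differ in gene number.

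Hox proteins act with cofactors of the TALE family, and these were present beside the members in most cells. Pbx2 was above TPM 1 in 28 cells, Meis1 in 27, Pbx3 in 23, Meis2 in 19, Pknox1 in 15 and Meis3 in 3, while Pbx4 was listed at 0 in all 50. Pbx2 or Pbx3 was found in 36 cells, and a Meis gene or Pknox1 in 39. Of the 48 cells with a Hoxb gene, 35 had Pbx2 or Pbx3, 29 had both these and a Meis gene or Pknox1, and 5 had none of them. Of the 18 cells with Hoxa13, 10 had both kinds. Over all 50 cells, 30 had both, so the counts beside the members were near the share of all cells.

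To describe genes that followed the members, the mean log2(TPM + 1) of the 5 Hoxb genes in each cell was ranked against every other gene, by a partial Spearman rho that takes out the number of genes above TPM 1. For these TALE genes the rho with the Hoxb mean ran from 0.0592 (Pbx2) to 0.254 (Meis1), above 0 for each of the 6 above TPM 1 in any cell. None of them reached 0.4, which 0.286% of all genes tried did. Their rho with Hoxa13 ran from -0.195 to 0.214. Over 9097 genes the 5th and 95th percentiles of the rho with the Hoxb mean were -0.223 and 0.252, so Meis1 lay just above that range.

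Of the 7 measured regulators of Hox genes, 6 were above TPM 1 in more than 30 of the 50 cells. Men1 and Psip1, which tether the MLL methyltransferase to chromatin, were above TPM 1 in 41 and 43 cells, the retinoic acid receptors Rara and Rarg in 42 and 38, Ctcf, which divides Hox clusters into domains, in 43, Gmnn in 34 and Rarb in 12. Psip1 had the highest rho with the Hoxb mean among them (0.312). The retinoic acid receptors differed in sign of their rho with Hoxa13, at 0.355 for Rara, 0.131 for Rarg and -0.349 for Rarb. Gmnn, which keeps DNA from being copied again within a cell cycle, had one of -0.392. All 14 genes of the Polycomb list were measured, with the ubiquitin ligase Rnf2 in 49 cells, the PRC2 subunits Eed, Suz12 and Ezh2 in 38, 33 and 29, and the demethylase Kdm6b, which removes the Polycomb mark, in 50. Their rho with the Hoxb mean ran from -0.318 (Eed) to 0.313 (Pcgf2). None of the 21 regulators reached 0.4 in either direction. Few of all genes tried did so, 0.286% upward and 0.121% downward for the Hoxb mean and 0.78% and 0.308% for Hoxa13.

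The genes around the cluster were read as a check of the locus. Copz2, Cbx1 and Nfe2l1 were above TPM 1 in 47, 43 and 40 cells, Snx11 in 25 and Skap1 in 11. Their rho with the Hoxb mean ran from -0.277 (Copz2) to 0.157 (Nfe2l1). Of 11 genes of posterior mesoderm and the allantois, where Hoxa13 is used, 2 were in the table, Bmp4 in 6 cells and Isl1 in 3, with a rho with Hoxa13 of -0.00433 and -0.140.

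Few genes followed the Hoxb mean. Of 9097 genes tried, each above TPM 1 in 20% or more of the cells, 26 (0.286%) had a partial rho of at least 0.4 and 11 (0.121%) one of -0.4 or less, and the highest was 0.554. How many genes without any relation would pass these limits is not given here. Neither these counts nor those for single members below are therefore read as an excess. Counts of this kind rest on few cells: with the cells of 1 first title number left out they were 89 (number 3) to 95 (number 1), with fewer cells by construction, and without the term for gene number there were 49. The genes named next had the same sign of rho within each of the 4 first title numbers, and they are described without a claim that the relation would be met in other cells.

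Lrp11, a membrane protein of the LDL receptor family, had the highest rho with the Hoxb mean, 0.554 (0.491 to 0.620 with a first title number left out). It was above TPM 1 in 40 cells with a median of 60.4 TPM. The RNA-binding proteins Tardbp (0.548) and Dhx30 (0.520) followed, then Ubqln2 (0.508), which carries ubiquitinated proteins to the proteasome, and Cluap1 (0.4999), a protein of cilia. Below them came Tnrc6b (0.450) of the microRNA silencing complex, Klhl24 (0.446), Aldh6a1 (0.439) of valine breakdown, Tfdp2 (0.431), the partner of E2F factors, and Hps5 (0.430) of lysosome-related organelles. Because the Hoxb mean holds Hoxb5, the rho of Lrp11 with Hoxb5 alone (0.608) is not separate from it. Bcl3 (0.528) and Pde7a (0.513) came next for Hoxb5. For Hoxb2 alone the genes were others, Zmynd19 (0.502), D19Ertd737e (0.462) and Patz1 (0.459).

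In the opposite direction, Ap3m2, a subunit of a vesicle coat, had a rho of -0.506 with the Hoxb mean. Gna15 (-0.481), a G protein subunit of blood cells, Ptpn7 (-0.465), a tyrosine phosphatase of blood cells, the tetraspanin Cd82 (-0.444) and the actin regulator Vasp (-0.421) followed. Several of the named genes were above TPM 1 in few cells, with 17 cells each for Ap3m2, Gna15 and Aldh6a1 and 18 for Hps5.

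Hoxa13 had more genes on its side than the Hoxb mean, 71 (0.78%) at a rho of at least 0.4 and 28 (0.308%) at -0.4 or less, although it was above TPM 1 in 18 cells. With the cells of 1 first title number left out the count of 71 became 131 (number 1) to 200 (number 3). The highest was Nfx1, a zinc finger transcription factor (0.565, 0.474 to 0.687). Next were the integrin subunit Itgb1 (0.553), the caveola protein Cav1 (0.540), Plvap (0.528), which forms the diaphragms of endothelial pores, and the protease Capn2 (0.504). Wasf2 (0.501) and Rhoa (0.498), both of the actin cytoskeleton, Blzf1 (0.499) of the Golgi, Eral1 (0.494) of mitochondrial ribosome assembly and Smtn (0.488), a protein of contractile cells, completed the group. Itgb1, Plvap and Rhoa were above TPM 1 in all 50 cells, with medians of 195, 714 and 419 TPM, so for them it is the level that followed Hoxa13.

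The lowest rho with Hoxa13 was that of Hmgb1, a chromatin protein (-0.547, -0.646 to -0.476), present in all 50 cells with a median of 336 TPM. The deubiquitinase Stambpl1 (-0.533, above TPM 1 in 15 cells), the respiratory chain proteins Ndufa4 (-0.490) and Higd1a (-0.479) and the cell cycle protein Cks2 (-0.474) followed.

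**Figure D5:**
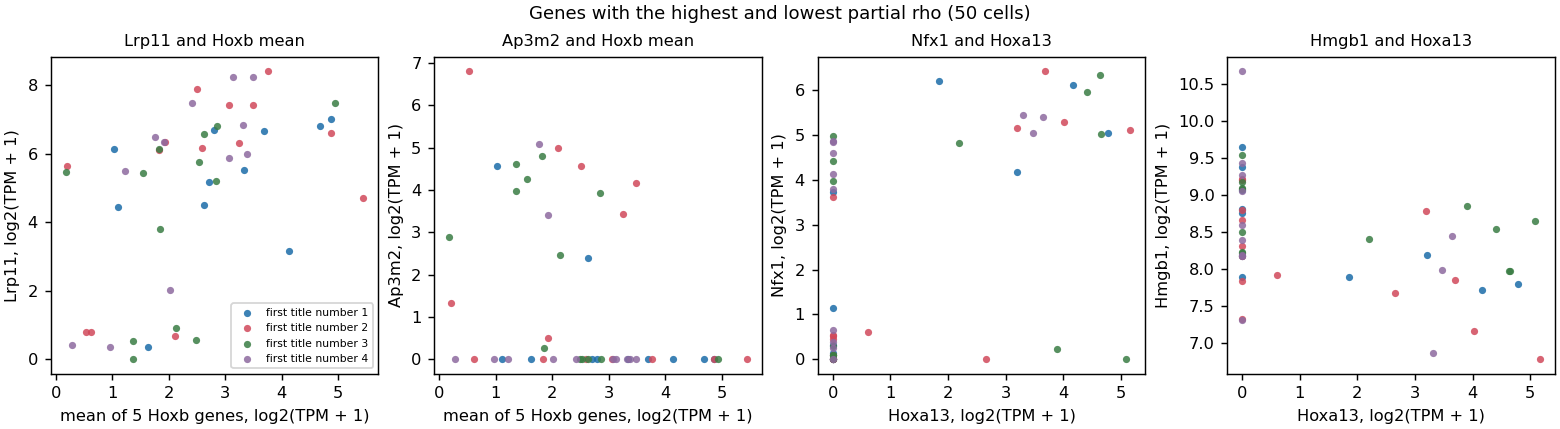
Level of 4 genes against the Hoxb mean (left pair of panels) or Hoxa13 (right pair), each axis as log2(TPM + 1), with 1 point per cell and colours for the first title number. The genes shown have the highest and lowest partial rho of those named (Lrp11 0.554, Ap3m2 -0.506, Nfx1 0.565, Hmgb1 -0.547). Points stack at a Hoxa13 of 0 because 31 cells were listed at 0.

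The counts for the other members differed more on the negative side than on the positive. A rho of at least 0.4 was reached by 37 genes for Hoxb5 (0.407%), 29 for Hoxd8 (0.319%), 25 for Hoxb7 (0.275%), 24 for Hoxb2 (0.264%), 23 for Hoxb6 (0.253%) and 15 for Hoxb4 (0.165%). A rho of -0.4 or less was reached by 7 genes for Hoxb5 (0.0769%), 20 for Hoxd8 (0.22%), 14 for Hoxb7 (0.154%), 11 for Hoxb2 (0.121%), 21 for Hoxb6 (0.231%) and 50 for Hoxb4 (0.55%). Hoxb4 alone among the 7 members had more genes at -0.4 or less than at 0.4 or more.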

How the data were processed

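PolyA RNA of 50 single cells was amplified with the Discover-sc WTA Kit V2 and made into libraries with the TruePrep DNA Library Prep Kit V2. The sources name different sequencers, and which applies was not settled. The submitters' processing notes list bcl2fastq, HISAT2 2.1.0, SAMtools 0.1.19, StringTie 1.3.4 and the genome build mm10. The deposited values are TPM, estimated by the authors with StringTie for each gene in each cell, and a cell's values summed to 942975 to 970894. The annotation, the use of strand and the rule for the 11879 genes listed are not given in the sources used here. No molecular identifiers were named.

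The members and the gene lists were chosen with earlier results of these data known. A gene was counted as expressed at TPM above 1, and levels were taken as log2(TPM + 1). Shares carry exact Clopper-Pearson 95% intervals, which cover counting error over cells only. Cells given by the shares came from the product of shares (pairs) or the distribution of a sum of independent calls. Partial Spearman rho, given the number of genes above TPM 1 per cell, was taken over genes expressed in 20% or more of the cells, Hox genes left out, and was tested on simulated data. Named were the members, the listed genes and, among genes with the same sign of rho within each first title number, the 10 highest and 5 lowest for the Hoxb mean and for Hoxa13 and the 3 highest for Hoxb5 and Hoxb2. The homeobox was located in GENCODE M21 transcripts by its conserved helix in an open reading frame. No cell was left out, no doublet caller was run, and no significance test was made. Values of 1 further Hox gene that met the 10% limit and of a few listed genes are not reported here. Python 3.11.15, numpy 2.4.6, pandas 2.3.3, scipy 1.17.1 and matplotlib 3.10.9 were used.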

Additional observations from a re-analysis of the deposited data

How the results depend on the processing

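No paired analysis was possible because all cells belong to a single group. Settings were changed one at a time: the level for expression (TPM above 0, 5 or 10), leaving out cells under 5000 genes, leaving out each first title number, rescaling TPM without the 81 ribosomal protein genes and, for the rho, a pseudocount of 0.1, no filter beyond a value above 0 in 3 cells, and no term for gene number. The median number of members per cell, 3, became 3.5 with any TPM above 0 counted and 2.5 with TPM above 10, and stayed from 3 to 3 with a first title number left out. The number of genes at a rho of at least 0.4 with the Hoxb mean, 26, became 50 without cells under 5000 genes, 49 without the term for gene number, and 89 to 95 with a first title number left out. That with Hoxa13, 71, became 131 to 200 with a first title number left out. Leaving cells out widens the spread of rho by construction, so these counts are not stable to the number of cells. The median phi of the Hoxb neighbours, 0.0773, ran from 0.0367 to 0.150 with a first title number left out and was 0.142 at a level of 5, 0.137 at a level of 10 and 0.127 without ribosomal protein genes. The number of pairs together more often than given ran from 12 to 18 of 21. Of 63 recomputed shares of single members, 61 moved by less than their interval and 2 by more, both of Hoxb4, whose share became 56% under the lowest level and 22% under the highest. Read depth is unknown and limits every call of 0.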
